A study of Mus musculus with 8 samples.

Results

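The genes described here are the cadherins, the cadherin-related genes, the claudins, the numbered integrin chains and the neural cell adhesion molecule Ncam1, measured by RNA-seq in beta cells sorted from NOD mice. Members were chosen by name alone: every gene of the deposited table whose symbol is Cdh, Cdhr, Cldn, Itga or Itgb followed by a number, and Ncam1. This gave 72 of 23366 genes, made up of 23 cadherins, 4 cadherin-related genes, 25 claudins, 11 integrin alpha chains, 8 integrin beta chains and Ncam1. NOD is an inbred mouse strain that develops autoimmune diabetes. All mice were 8 to 10 weeks old, the labels name no transgene, treatment or sex for either group, and the sorted beta cells fall into populations that the labels call Top and Btm, written top and bottom here. Each population had 4 libraries made from about 1000 cells, with libraries 1 and 2 in batch 1 and libraries 3 and 4 in batch 2, as the labels name the batches. The labels do not say by what feature the populations were separated, nor that the libraries came from separate mice. The p-values therefore set the difference between populations only against the spread among these libraries, which may be technical.

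Cadherins are calcium-dependent proteins that join like cells at adherens junctions, where catenins tie them to actin. Claudins form the strands of tight junctions and set which ions pass between epithelial cells, and integrins are pairs of an alpha and a beta chain that hold cells to laminin, collagen, fibronectin and other matrix proteins. In islets, E-cadherin (Cdh1), N-cadherin (Cdh2) and N-CAM (Ncam1) hold endocrine cells together and help to arrange the cell types within the islet, and integrins with the beta1 chain bind the basement membrane.

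The libraries held 6657639 to 11262368 estimated counts. Levels are given in CPM, counts scaled to a common library size after TMM scaling, which corrects for a few very abundant genes. CPM carry no gene length, so levels are compared between libraries and not between genes. The 10 beta cell markers summed to 344000 to 506000 CPM in top and 38700 to 81400 CPM in bottom, and the beta cell factor Mafa had 0 counts in every library. The 4 delta cell markers summed to 2650 to 5300 CPM in top and 33400 to 57800 CPM in bottom. The 3 PP and epsilon cell markers, of which Ppy and Pyy were called higher, summed to 1200 to 2360 CPM in top and to 77100, 92000, 11300 and 22100 CPM in bottom 1 to 4. The 14 acinar cell markers, of which 12 were tested and 1 was called higher, summed to 316 CPM in top 3, 37.5 to 63.3 in the other top libraries and 483, 1840, 490 and 316 CPM in bottom 1 to 4. The 6 alpha cell markers summed to 65100 to 138000 CPM in top and 28900 to 142000 CPM in bottom, so neither population held beta cell hormone transcripts alone. In bulk samples fewer cells of a type and less RNA per cell cannot be told apart. The 28 intestinal epithelium markers summed to 36900 CPM in bottom 1, 8440 in bottom 2, 2400 in top 1, 1020 in top 4 and 27.1 to 207 in the other 4 libraries. The 12 endothelial markers summed to 335 CPM in bottom 4, 51.6 in bottom 3 and 0.124 to 25.1 elsewhere. The 12 fibroblast and stellate cell markers summed to 955 CPM in bottom 4, 256 in bottom 3, 183 in bottom 2 and 0.251 to 16.0 elsewhere.

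The 250 bases before the start of 5 members are shown because Cdhr2, Cdhr5 and Cldn15 are brush border or intestinal epithelial genes, Cldn3 is the claudin with the smallest p, and Cdhr1 is the member that fell. The sequences are those of RefSeq on the mouse build GRCm38.p6, at chr14:37098348-37098597 on the minus strand for Cdhr1, chr13:54701213-54701462 on the plus strand for Cdhr2, chr7:141276787-141277036 on the minus strand for Cdhr5, chr5:134985964-134986213 on the plus strand for Cldn3 and chr5:136967619-136967868 on the plus strand for Cldn15. They are written 5′ to 3′ on the gene's own strand, and capitals mark matches on either strand to TTTAT (the core bound by the intestinal CDX factors, ATAAA on the other strand), GTTAAT (a half-site of HNF1 factors, ATTAAC) or CACCTG (an E-box, CAGGTG), which overlap nowhere in these sequences.
Cdhr1: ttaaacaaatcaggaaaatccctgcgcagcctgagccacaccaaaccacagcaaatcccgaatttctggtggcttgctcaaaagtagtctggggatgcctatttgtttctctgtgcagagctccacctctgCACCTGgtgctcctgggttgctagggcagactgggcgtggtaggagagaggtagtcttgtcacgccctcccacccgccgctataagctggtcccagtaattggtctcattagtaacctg
Cdhr2: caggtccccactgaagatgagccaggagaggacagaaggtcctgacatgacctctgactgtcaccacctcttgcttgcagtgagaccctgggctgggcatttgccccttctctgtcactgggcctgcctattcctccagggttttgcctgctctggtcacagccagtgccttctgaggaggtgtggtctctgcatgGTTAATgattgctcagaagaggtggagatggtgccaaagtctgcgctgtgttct
Cdhr5: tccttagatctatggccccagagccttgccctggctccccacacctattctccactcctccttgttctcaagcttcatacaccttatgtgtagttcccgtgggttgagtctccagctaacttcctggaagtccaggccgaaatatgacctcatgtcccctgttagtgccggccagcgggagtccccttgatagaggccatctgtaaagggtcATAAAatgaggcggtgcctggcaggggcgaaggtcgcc
Cldn3: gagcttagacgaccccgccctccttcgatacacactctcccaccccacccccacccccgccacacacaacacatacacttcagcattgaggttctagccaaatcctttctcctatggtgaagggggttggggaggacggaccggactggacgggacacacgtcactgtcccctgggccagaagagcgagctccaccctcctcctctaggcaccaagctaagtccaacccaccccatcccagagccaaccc
Cldn15: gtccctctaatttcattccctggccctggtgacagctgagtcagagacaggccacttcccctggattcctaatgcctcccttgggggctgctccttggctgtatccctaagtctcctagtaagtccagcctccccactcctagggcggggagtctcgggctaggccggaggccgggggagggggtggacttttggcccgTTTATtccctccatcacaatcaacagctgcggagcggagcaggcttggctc
Among 27025 mouse promoters cut to the same 250 bases, TTTAT was found in 38.1%, GTTAAT in 6.5% and CACCTG in 17.1%. Of the 18 tested members with a RefSeq promoter entry, 2 held TTTAT (Cldn2 and Cldn15), 2 held GTTAAT (Cdhr2 and Cldn1) and 6 held CACCTG (Cdhr1, Cldn4, Cldn6, Itga3, Itga9 and Itgb5). The Cldn3 sequence held none of these letters. A match describes the letters in this window and is not a binding site.

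Of the 72 members, 28 had enough counts to be tested, 25 had counts below the filter and 19 had none in any library. The test asked whether a gene differed between bottom and top, with the batch in the model (edgeR quasi-likelihood test, p adjusted by the Benjamini-Hochberg method over 11721 genes, call where that was under 0.05). Positive log2 fold changes stand for a level that is higher in bottom. Of the 28 tested members, 1 rose in bottom (Cdhr2) and 1 fell (Cdhr1), beside 0.444% of all tested genes called in either direction, 0.282% higher and 0.162% lower. An unadjusted p under 0.05 was reached by 8 of the 28 members, beside 10.3% of all tested genes. Under other settings the called members were Cdhr2 with RLE scaling (0.41% of all genes called), Cdhr2 and Cldn3 with total counts (0.606%), Cdhr1, Cdhr2 and Cldn3 with no filter (1.17%), Cdhr1 without the batch term (0.273%), and both Cdhr1 and Cdhr2 by limma-trend (0.665% of genes higher, 0.503% lower). DESeq2 called 5 members higher (Cdhr2, Cdhr5, Cldn2, Cldn3 and Itgb6) and 2 lower (Cdhr1 and Cdh8), beside 4.08% and 1.96% of the genes it tested. The log2 fold change was positive in 22 members (50.1% of all tested genes) and negative in 6, above 1 in 15 (15.2% of all tested genes) and below -1 in 2 (13.4%), and its median was 1.16 beside 0 over all tested genes. These counts are descriptions: 10 of the 28 members reached the filter's 1.11 CPM in more bottom than top libraries and 1 in more top than bottom libraries, so part of the tested members were let in by the population where they were high. With all 72 members summed, the libraries stood at 885, 815, 850 and 784 CPM in top 1 to 4 and at 2530, 1750, 1130 and 796 CPM in bottom 1 to 4, so the sums were highest in the bottom libraries with the highest intestinal and PP cell marker sums, bottom 1 and bottom 2, and bottom 4 lay within the range of top.

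**Figure D1:**
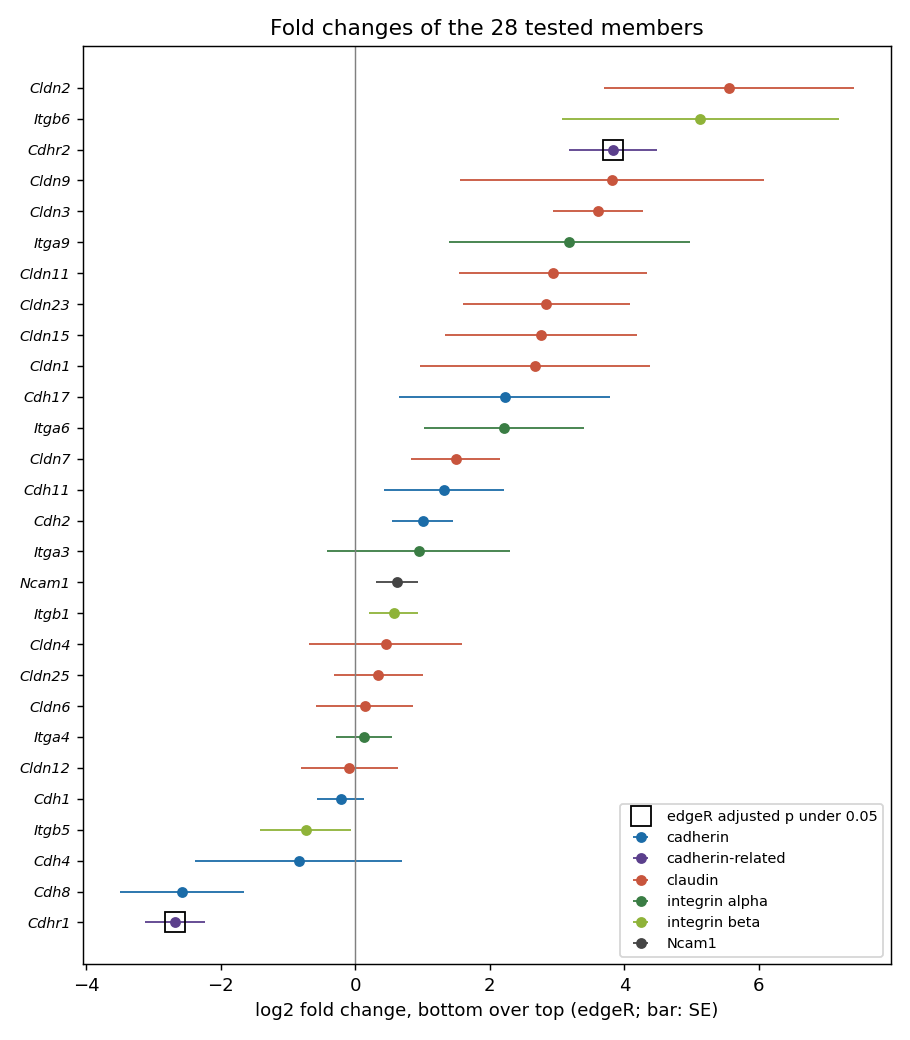
Log2 fold change of bottom over top (horizontal axis) for the 28 tested members, sorted by size and coloured by family, with bars of 1 standard error from the edgeR fit and squares around the members called. Cdhr1 at -2.68 and Cdhr2 at 3.83 carry the squares, and Cldn9 and Itgb6 have the widest bars, with standard errors of 2.26 and 2.06.

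The cadherin-related genes held both calls, in opposite directions. Cdhr1 is a protocadherin known from the outer segments of photoreceptors. Its level was 115, 87.3, 96.0 and 97.8 CPM in top 1 to 4 and 24.3, 6.54, 12.5 and 18.3 CPM in bottom 1 to 4. All 4 top libraries lay above all 4 bottom libraries, a separation found for 3.91% of all tested genes in that direction. Cdhr1 was 6.42-fold higher in top (log2 fold change -2.68 ± 0.45 SE, adjusted p = 0.0462 by edgeR, n = 4 per population). The log2 fold change was -2.75 in batch 1 and -2.63 in batch 2. Without bottom 1 the adjusted p was 0.0206 (0.49% of all genes called), and without any of the other 7 libraries it was 0.0608 to 0.17, above the threshold, with log2 fold changes of -2.82 to -2.39. Of the 10 beta cell markers 9 were tested, 3 were called lower in bottom and 0 higher. The 3 were Ins1, Ins2 and G6pc2, at 6.77-, 7.97- and 5.32-fold higher in top, while Nkx6-1 and Pdx1 overlapped between populations. How much the difference in beta cell transcripts contributed to the Cdhr1 call was not tested.

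Cdhr2 is a protocadherin of the brush border, where it pairs with Cdhr5 to link the tips of microvilli. Its level was 32.9, 7.16, 0.495 and 1.91 CPM in top 1 to 4 and 276, 144, 33.3 and 15.2 CPM in bottom 1 to 4. Within each batch both bottom libraries lay above both top libraries, and across batches top 1 lay above bottom 4 and just below bottom 3. Cdhr2 was 14.2-fold higher in bottom (log2 fold change 3.83 ± 0.66 SE, adjusted p = 0.0491 by edgeR, n = 4 per population). The log2 fold change was 3.36 in batch 1 and 4.35 in batch 2. Leaving out any 1 of the 8 libraries gave an adjusted p of 0.0612 to 0.157, above the threshold, with log2 fold changes of 3.47 to 4.57, the highest without top 1.

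Its partner Cdhr5 did not pass the filter of the edgeR test, and DESeq2, which tested it, called it higher in bottom. The counts were 34, 2, 1 and 0 in top 1 to 4 and 802, 640, 2 and 0 in bottom 1 to 4. Cdhr5 was thus high in the bottom libraries of batch 1 alone, where the intestinal markers summed to 36900 and 8440 CPM. Cdhr2 stood at 33.3 and 15.2 CPM in bottom 3 and bottom 4, where these markers summed to 64.8 and 27.1 CPM. In both of these libraries 11 of the 28 markers, Cdx1, Cdx2 and Muc2 among them, were at 0 counts. The other 17 had counts in at least 1 of these libraries, and most of them were near 0 there. Fabp1 was at 0.632 and 0.741 CPM in bottom 3 and bottom 4, beside 0.618 and 253 CPM in top 3 and top 4. Lgals4 was at 0.632 and 1.48 CPM beside 3.83 and 59.5 CPM in top 3 and top 4. Some stood higher than most of the list, with Vil1 at 36.6 and 9.82 CPM beside 44.4 and 29.7 CPM in top 3 and top 4. Slc15a1 was at 5.48 and 8.80 CPM beside 4.70 and 9.53 CPM in top 3 and top 4. Gpa33 was at 7.58 and 1.85 CPM beside 0.124 and 0.159 CPM in top 3 and top 4. Of the 28 intestinal markers 18 were tested and 0 called by edgeR. With bottom 1 and bottom 2 left out, the log2 fold change of Cdhr2 was 4.33, with an adjusted p of 0.267 by edgeR. The PP and epsilon markers were also highest in bottom 1 and bottom 2 and were higher in every bottom than in every top library. How much intestinal or PP cell transcripts contributed to the Cdhr2 call was not tested.

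**Figure D2:**
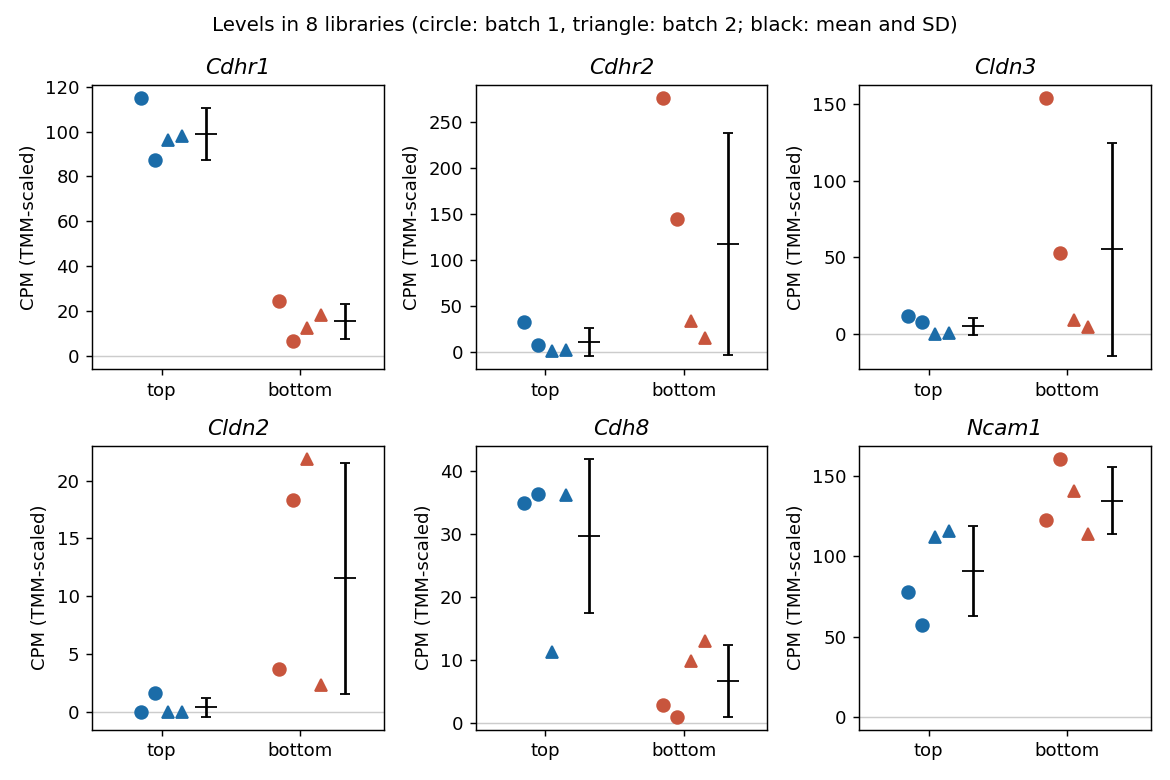
Level in CPM (linear vertical axis scaled per gene, with 0 marked) of Cdhr1, Cdhr2, Cldn3, Cldn2, Cdh8 and Ncam1 in the 4 top and 4 bottom libraries, 1 point per library, circles for batch 1 and triangles for batch 2, with the mean and SD in black. Cdhr1 separates the populations, with 87.3 CPM as its lowest top value and 24.3 CPM as its highest bottom value, while Cdhr2 overlaps between top 1 at 32.9 CPM and bottom 4 at 15.2 CPM.

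None of the 6 tested cadherins was called by edgeR, 1 of them (Cdh8) had an unadjusted p under 0.05, and DESeq2 called Cdh8. Cdh1, E-cadherin of epithelia and endocrine cells, stood at 109, 172, 175 and 174 CPM in top 1 to 4 and at 190, 80.4, 169 and 98.2 CPM in bottom 1 to 4. The populations overlapped, with a log2 fold change of -0.22 ± 0.35 SE (adjusted p = 0.901 by edgeR) that was 0.13 when total counts were used without TMM scaling. Cdh2, N-cadherin of neural and endocrine cells, stood at 63.7, 44.7, 60.2 and 44 CPM in top and at 58.0, 224, 98.1 and 62.8 CPM in bottom. Bottom 2 was the highest library, and bottom 1 and bottom 4 lay within the top range, with a log2 fold change of 1.00 ± 0.45 SE (adjusted p = 0.492). Both cadherins of islet adhesion were thus detected in every library of both populations.

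Cdh8, a type II cadherin known from the nervous system, stood at 34.8, 36.3, 11.3 and 36.2 CPM in top 1 to 4 and at 2.95, 1.03, 9.90 and 13.0 CPM in bottom 1 to 4. Only top 3 fell within the bottom range, and the log2 fold change was -2.58 ± 0.92 SE (adjusted p = 0.342 by edgeR). DESeq2, another count test, called it at an adjusted p of 0.0247. Without bottom 2 the log2 fold change was -1.91, and without top 3 it was -3.28. Cdh7 and Cdh9, also of the nervous system, had most of their counts in top and lay below the filter, Cdh7 with 2, 11, 0 and 16 counts in top and 0, 0, 1 and 7 in bottom, and Cdh9 with 1, 13, 0 and 11 in top and 0 in all bottom libraries. Set against a floor of 3 counts over the 4 bottom libraries, Cdh9 was at least 11.4-fold higher in top. The 9 Schwann and neuronal cell markers summed to 60.7 to 102 CPM in top and 82.3 to 127 CPM in bottom.

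Cdh17, the liver-intestine cadherin, stood at 29.8, 0.502, 0 and 2.22 CPM in top 1 to 4 and at 241, 48.9, 4.11 and 0 CPM in bottom 1 to 4. Its highest libraries were bottom 1, bottom 2 and top 1, which also held the highest intestinal marker sums, and the populations overlapped (log2 fold change 2.22 ± 1.57 SE, adjusted p = 0.720 by edgeR). Cdh11, a cadherin of mesenchymal cells, stood at 1.76 to 3.34 CPM in top and at 2.73, 2.80, 17.6 and 14.5 CPM in bottom 1 to 4. Its 2 highest libraries, bottom 3 and bottom 4, held the highest fibroblast marker sums, 256 and 955 CPM, and the log2 fold change was 1.32 ± 0.89 SE (adjusted p = 0.704). Cdh5, VE-cadherin of endothelial junctions, was not tested and had 0 counts in every top library and 1, 0, 97 and 209 in bottom 1 to 4. Over the floor of 3 counts in the 4 top libraries it was at least 74.7-fold higher in bottom, and the endothelial markers summed to 51.6 and 335 CPM in bottom 3 and bottom 4. Whether cells of these other types account for the Cdh17, Cdh11 and Cdh5 counts was not tested.

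Among the remaining cadherins, Cdh4 (R-cadherin) stood at 0.124 to 15.5 CPM in top and 0.983 to 4.82 CPM in bottom, and its log2 fold change was -3 in batch 1 and 1.32 in batch 2. Below the filter, Cdh16, a cadherin of kidney epithelium, had 1 to 5 counts per top library and 10, 23, 11 and 10 in bottom. Cdh22 had 5, 6, 0 and 6 counts in top and 20, 0, 12 and 31 in bottom.

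Claudins made up the largest tested family, with 12 of 25 members tested, 10 at 0 in every library and none called by edgeR. An unadjusted p under 0.05 was reached by 4 of the 12, beside 10.3% of all tested genes. The log2 fold change was positive in 11 of 12 and had a median of 2.72, beside 50.1% positive and a median of 0 over all tested genes. Cldn2, Cldn3, Cldn9, Cldn11 and Cldn23 reached the filter's level in more bottom than top libraries, which favours positive values, so these counts are a description. Cldn3, a sealing claudin of gut and glandular epithelia, stood at 11.8, 7.53, 0.124 and 0.794 CPM in top 1 to 4 and at 154, 53.1, 9.06 and 4.26 CPM in bottom 1 to 4. Within each batch both bottom libraries lay above both top libraries, as for Cdhr2, and the log2 fold change was 3.61 ± 0.67 SE (adjusted p = 0.0659). It was 3.39 in batch 1 and 3.85 in batch 2. Cldn3 passed the threshold under 3 other settings: with total counts in place of TMM (adjusted p = 0.0471), with no filter on low counts (0.0139) and by DESeq2 (1.89e-06).

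Cldn2, which forms cation pores in leaky epithelia, was at 0 CPM in top 1, 3 and 4 and at 1.63 CPM in top 2. In bottom 1 to 4 it stood at 3.71, 18.3, 21.9 and 2.32 CPM, so every bottom library lay above every top library, as for 3.31% of all tested genes. The log2 fold change was 5.55 ± 1.86 SE (adjusted p = 0.310 by edgeR), and DESeq2 called it at 0.00724. Without top 2, the top library with counts, the log2 fold change was 9.69, and without each of the other libraries it was 4.60 to 6.64. The 10 duct cell markers, of which 8 were tested and Krt8 was called higher, summed to 418 to 701 CPM in top and 996 to 1560 CPM in bottom, and the part of duct transcripts in the Cldn2 difference was not tested.

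Cldn15, which forms sodium channels between enterocytes, stood at 23.6, 6.28, 0.247 and 14.4 CPM in top 1 to 4 and at 410, 117, 0.421 and 36.2 CPM in bottom 1 to 4. Its lowest libraries were top 3 and bottom 3, and its log2 fold change was 2.76 ± 1.43 SE (adjusted p = 0.574 by edgeR), with 4.11 in batch 1 and 1.33 in batch 2. Cldn7, a claudin of the basolateral membrane, stood at 21.4, 34.5, 7.42 and 32.4 CPM in top and at 212, 117, 36.2 and 17.0 CPM in bottom (1.49 ± 0.66 SE, adjusted p = 0.476). Bottom 4 lay within the top range. Cldn23 stood at 29.3, 1.51, 1.11 and 0.318 CPM in top and at 86.7, 7.38, 22.1 and 5.65 CPM in bottom (2.84 ± 1.24 SE, adjusted p = 0.474). For Cldn15, Cldn7 and Cldn23 the highest library was bottom 1, the library with the highest intestinal marker sum and a high PP and epsilon marker sum, and how much those transcripts contributed was not tested.

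The pair of neighbouring genes Cldn3 and Cldn4 differed in pattern. Cldn4, a claudin of tight epithelia, stood at 24.6, 21.2, 70.4 and 7.62 CPM in top and at 140, 110, 21.9 and 4.63 CPM in bottom. Its log2 fold change was 2.43 in batch 1 and -1.54 in batch 2 (0.45 ± 1.14 SE with both batches, adjusted p = 0.940). The neighbours Cldn6 and Cldn9 also differed. Cldn6, a claudin of embryonic epithelia, stood at 5.24 to 35.7 CPM in top and 6.58 to 58.7 CPM in bottom (0.14 ± 0.72 SE). Cldn9 was at 0 to 4.82 CPM in top and at 3.82, 102, 4.32 and 3.80 CPM in bottom, so its log2 fold change of 3.81 ± 2.26 SE (adjusted p = 0.648) leaned on single libraries and ran from 1.91 without bottom 2 to 7.34 without top 3. The acinar marker sums were also highest in bottom 2 and, among top libraries, in top 3, and their part in the Cldn9 values was not tested.

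The gene listed as Cldn25 stood at 51.4, 22.9, 82.1 and 46.7 CPM in top and at 102, 137, 19.2 and 45.2 CPM in bottom. Its log2 fold change was 1.66 in batch 1 and -0.98 in batch 2, and it was 0.34 ± 0.66 SE over both (adjusted p = 0.922 by edgeR). RefSeq gives Cldn25 as an older name of both Cldnd1 and Cldn25-ps, so which gene was counted is uncertain. Cldn11, the claudin of myelin and testis, was at 0 to 1.73 CPM in top and 1.64 to 8.43 CPM in bottom (2.94 ± 1.40 SE, adjusted p = 0.522). Cldn12 ranged over 15 to 25.2 CPM in top and 5.46 to 50.8 CPM in bottom, with a log2 fold change of -0.09 ± 0.72 SE that was 0.22 without TMM scaling. Cldn1, a sealing claudin of epidermis, had 0 to 2.38 CPM in top and 11.3 CPM in bottom 3 as its highest value. Below the filter, Cldn10 had 0 counts in top and 0, 0, 15 and 9 in bottom, at least 5.84-fold higher over the floor of 3 counts.

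**Figure D3:**
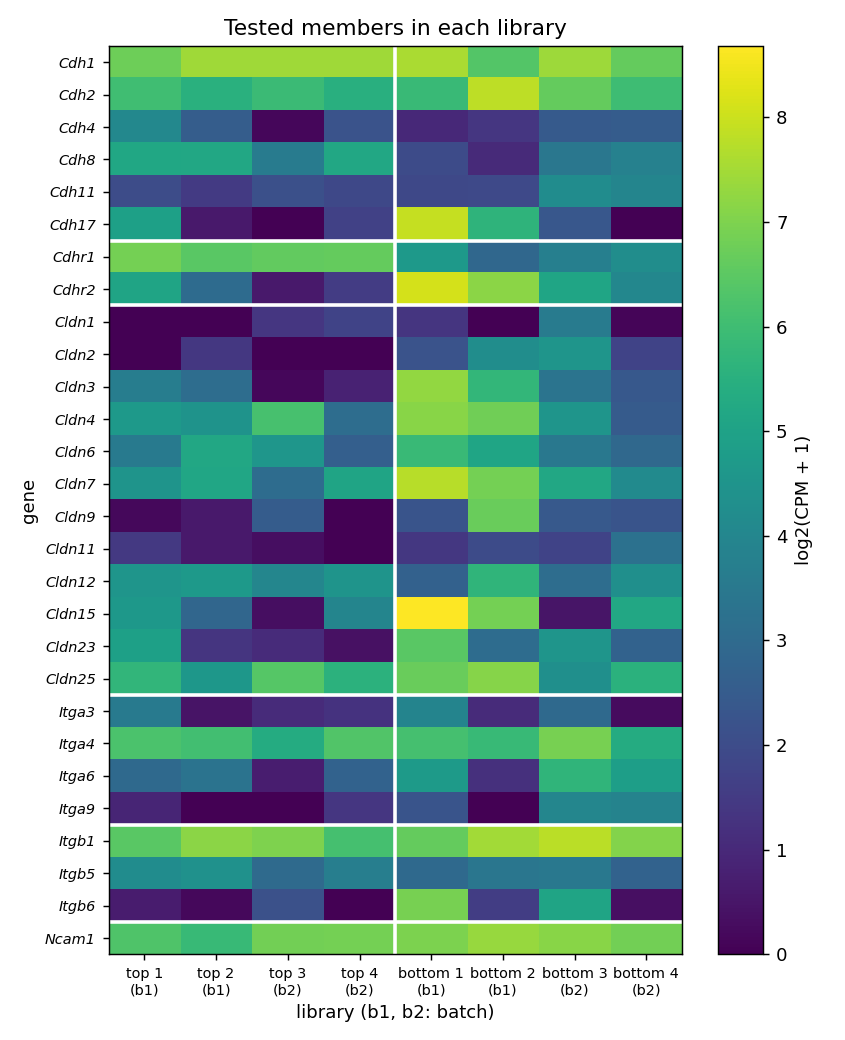
Heat map of the 28 tested members (rows, by family, white lines between families) in the 8 libraries (columns, with the batch), coloured by log2(CPM + 1). Cldn3, Cldn7 and Cldn15 are highest in bottom 1 and bottom 2, while Cdh11 and Itga9 are highest in bottom 3 and bottom 4.

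Of the 7 tested integrin chains none was called by edgeR, DESeq2 called Itgb6, which was also the 1 chain with an unadjusted edgeR p under 0.05. Itgb1, the beta chain shared by most laminin and collagen receptors, stood at 87.0, 143, 126 and 68.7 CPM in top and at 98.3, 179, 222 and 132 CPM in bottom (0.57 ± 0.36 SE, adjusted p = 0.683 by edgeR). Itga4, which pairs with beta1 to bind fibronectin and VCAM-1, stood at 39.6 to 78.6 CPM in top and 39.2 to 118 CPM in bottom (0.13 ± 0.42 SE, adjusted p = 0.957). Both overlapped between populations and were present in every library. Itga4 overlaps Cerkl in the genome, and its reads may include those of that gene.

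Itga6, a laminin receptor chain, stood at 6.76, 8.91, 0.618 and 5.56 CPM in top and at 25.6, 1.31, 50.1 and 28.4 CPM in bottom (2.21 ± 1.19 SE, adjusted p = 0.601 by edgeR). In 3 of 4 bottom libraries it was above all top libraries, and bottom 2 was the exception. Itga9, which binds tenascin and osteopontin, stood at 0.863, 0, 0 and 1.59 CPM in top and at 3.82, 0, 15 and 13.7 CPM in bottom (3.18 ± 1.79 SE, adjusted p = 0.625). The populations overlapped through bottom 2, where it was at 0. Itga3, another laminin receptor chain, ranged over 0.377 to 10.6 CPM in top and 0.185 to 14.0 CPM in bottom (0.94 ± 1.36 SE). All 4 tested alpha chains were positive on the log2 scale (median 1.57), beside 50.1% of all tested genes and a median of 0. Itga6 and Itga9 reached the filter's level in more bottom than top libraries, which favours positive values, so this count is a description. Itga4 was at -0.18 in batch 1 alone, and Itga3 at -0.53 without bottom 3.

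Itgb6, an epithelial chain that pairs with alpha V to release active TGF-beta, stood at 0.575, 0.126, 3.46 and 0 CPM in top and at 118, 1.96, 32.6 and 0.278 CPM in bottom. Its bottom values ran from below the top maximum to 118 CPM, so the log2 fold change of 5.13 carried a standard error of 2.06 (adjusted p = 0.415 by edgeR), and DESeq2 called it at 0.0176. The log2 fold change was 2.93 without bottom 1 and 7.69 without top 3. Itgb5, which also pairs with alpha V, was at 7.05 to 20.1 CPM in top and 5.65 to 10.1 CPM in bottom (-0.74 ± 0.68 SE). The alpha V chain itself, Itgav, carries no number and so is no member. It was looked up after the values of the members were seen, and stood at 160, 137, 136 and 166 CPM in top and at 8.52, 52.1, 108 and 99.0 CPM in bottom. No bottom library reached the top range, as for 3.91% of all tested genes, and the log2 fold change was -1.42 ± 0.58 SE (adjusted p = 0.427).

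The integrin chains below the filter had most of their counts in few libraries. Itga1, a collagen receptor chain whose gene overlaps Pelo, had 0, 0, 40 and 0 counts in top and 0, 0, 20 and 344 in bottom. Itgb8, another partner of alpha V, had 2, 1, 7 and 0 counts in top and 0, 8, 0 and 135 in bottom. Both were highest in bottom 4, the library with the highest endothelial and fibroblast sums. Itgb4, the hemidesmosome chain that pairs with alpha6 and whose gene overlaps Galk1, had 6, 0, 0 and 0 counts in top and 41, 39, 4 and 7 in bottom. Itgb3, the platelet and vascular chain, had 0, 0, 5 and 0 counts in top and 0, 61, 28 and 39 in bottom. Itga2, Itga7, Itga10 and Itga11 totalled at least 10 counts each with no library above 45 counts. Itgb2, the chain shared by leukocyte integrins, had 0 to 2 counts in top and 0 to 9 in bottom, where the 8 leukocyte markers summed to 5.84 to 8.13 CPM.

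Ncam1, which marks endocrine and neural cells, stood at 78.1, 57.0, 112 and 116 CPM in top 1 to 4 and at 123, 161, 141 and 114 CPM in bottom 1 to 4. Bottom 1, bottom 2 and bottom 3 lay above all top libraries, and bottom 4 did not. The mean was 90.7 CPM in top and 135 CPM in bottom, with a log2 fold change of 0.62 ± 0.31 SE (adjusted p = 0.547 by edgeR). In batch 1 it was 1.05 and in batch 2 it was 0.18.

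Whether differences between populations themselves differed between batches was tested by an interaction term in edgeR. None of the 28 members was called, as none of all tested genes was, and 4 members had an unadjusted p under 0.05 (Cldn25, Cldn4, Cldn9 and Cdh8) beside 7.55% of all tested genes. DESeq2 called 0 of the members.

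Genes that work with the members were listed by role, 213 genes in 9 lists, of which 123 were tested and 0 were called by edgeR. An unadjusted p under 0.05 was reached by 27 of the 123, beside 10.3% of all tested genes. Of the 123, 82 had positive log2 fold changes, beside 50.1% of all tested genes, whose median was 0. Some, such as Postn and Vim, passed the filter through their bottom libraries alone, which favours positive values, so the counts per list are descriptions. The genes named per list are those of smallest p, which favours populations that do not overlap. Of the listed genes limma-trend called 7 and DESeq2 22, beside 1.17% and 6.04% of all genes those tools tested. Integrin ligands and matrix proteins held the smallest adjusted p of these genes: 12 of 13 tested ligands were positive on the log2 scale (median 1.94) and 4 stood at an unadjusted p under 0.05. Cyr61, a matrix protein that binds alpha V integrins, stood at 0.251 to 18.7 CPM in top and 36.3 to 181 CPM in bottom (4.46 ± 0.86 SE, adjusted p = 0.0692). Postn, periostin of fibroblasts, was at 0 in all top libraries and at 2.29, 5.51, 8.11 and 33.7 CPM in bottom (adjusted p = 0.0887 by edgeR). The fibroblast and stellate markers summed to 4.59, 183, 256 and 955 CPM in bottom 1 to 4, in the same order. Their part in the Postn difference was not tested. Mfge8, a ligand on membrane vesicles, stood at 0 to 12.4 CPM in top and 65.8 to 274 CPM in bottom (5.15 ± 1.29 SE, adjusted p = 0.164). For these 3 ligands no bottom library overlapped top, as for 3.31% of all tested genes in that direction.

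Of 27 tested tight junction partners 16 had positive log2 fold changes and 5 an unadjusted p under 0.05. Jam2, a junctional adhesion molecule, stood at 1.87, 1.13, 0 and 0 CPM in top and at 32.2, 41.5, 10.6 and 19.4 CPM in bottom (6.03 ± 1.17 SE, adjusted p = 0.0706 by edgeR). Pard3, a polarity scaffold that binds Jam proteins, went the other way, with 40.3, 60.1, 62.4 and 87.0 CPM in top and 7.87, 10.1, 12.7 and 38.3 CPM in bottom (-2.01 ± 0.49 SE, adjusted p = 0.148). Neither gene overlapped between populations, as for 3.31% of all tested genes in the direction of Jam2 and 3.91% in that of Pard3. Igsf5 had a log2 fold change of 1.99 ± 0.53 SE (adjusted p = 0.197 by edgeR).

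In the integrin adhesome 12 of 23 tested genes were positive, and the median log2 fold change was 0.03. The tetraspanin Cd9, which binds beta1 integrins, stood at 3.02 to 16.2 CPM in top and 44.2 to 135 CPM in bottom (2.97 ± 0.60 SE, adjusted p = 0.0817 by edgeR). Fermt1, the kindlin of epithelial cells, and Src, a kinase of focal adhesions, also had no overlap between populations, with log2 fold changes of 5.02 ± 1.27 SE and 2.72 ± 0.87 SE (adjusted p of 0.164 and 0.282). Such a separation in that direction was found for 3.31% of all tested genes. Of 13 tested catenins and adherens junction partners 9 were positive and 1 had an unadjusted p under 0.05. Vcl, vinculin, had a log2 fold change of 1.69 ± 0.66 SE (adjusted p = 0.402), while the nectin Pvrl3 and afadin, Mllt4, were at -0.54 ± 0.33 SE and -0.60 ± 0.52 SE.

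Of 13 tested brush border partners, 11 had positive log2 fold changes and 3 an unadjusted p under 0.05. Anks4b, a scaffold of the Cdhr2 and Cdhr5 complex, stood at 12.7, 35.2, 0.742 and 0.794 CPM in top and at 86.8, 23.5, 51.2 and 23.7 CPM in bottom (3.24 ± 1.11 SE, adjusted p = 0.325 by edgeR). In bottom 3 and bottom 4 it was far above top 3 and top 4, as Cdhr2 was, and the intestinal marker sums of those bottom libraries were 64.8 and 27.1 CPM. The scaffolds Pdzk1 and Slc9a3r1 were highest in bottom 1, at 166 and 185 CPM, beside top means of 7.84 and 21.3 CPM (adjusted p of 0.367 and 0.427).

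Among 11 tested cadherin regulators and genes of epithelial-mesenchymal transition, 7 were positive and 3 had an unadjusted p under 0.05. Vim, vimentin of mesenchymal cells, stood at 0, 0.251, 0 and 0.318 CPM in top and at 1.20, 26.1, 24.3 and 41.8 CPM in bottom (7.12 ± 1.47 SE, adjusted p = 0.0879 by edgeR, and 0.0352 without bottom 1). The 12 fibroblast and stellate markers, of which 4 were tested and Col3a1 and Dcn were called higher, were also lowest among bottom libraries in bottom 1 at 4.59 CPM, and their part in the Vim difference was not tested. The epithelial genes Epcam and Ovol1 had log2 fold changes of 1.26 ± 0.42 SE and 3.83 ± 1.05 SE (adjusted p of 0.304 and 0.210). Desmosomal Pkp2 was higher in every bottom than in every top library (2.42 ± 0.73 SE, adjusted p = 0.261) and Pkp4 lower in every one (-1.07 ± 0.35 SE, adjusted p = 0.303), and 6 of 7 tested desmosomal genes were positive. Such separations were found for 3.31% of all tested genes higher in bottom and 3.91% lower.

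Of 10 tested Ncam1 relatives and polysialic acid genes 6 were positive. Prnp, the prion protein, which binds N-CAM, was at 408 to 709 CPM in top and 176 to 395 CPM in bottom with no overlap (-0.98 ± 0.30 SE, adjusted p = 0.264 by edgeR). Ncam2 and the contactin Cntn1 overlapped, with log2 fold changes of 3.42 ± 1.41 SE and -1.87 ± 0.83 SE. Of 6 tested protocadherins and other cadherin-like genes outside the name rule, 3 were positive and 0 had an unadjusted p under 0.05.

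**Figure D4:**
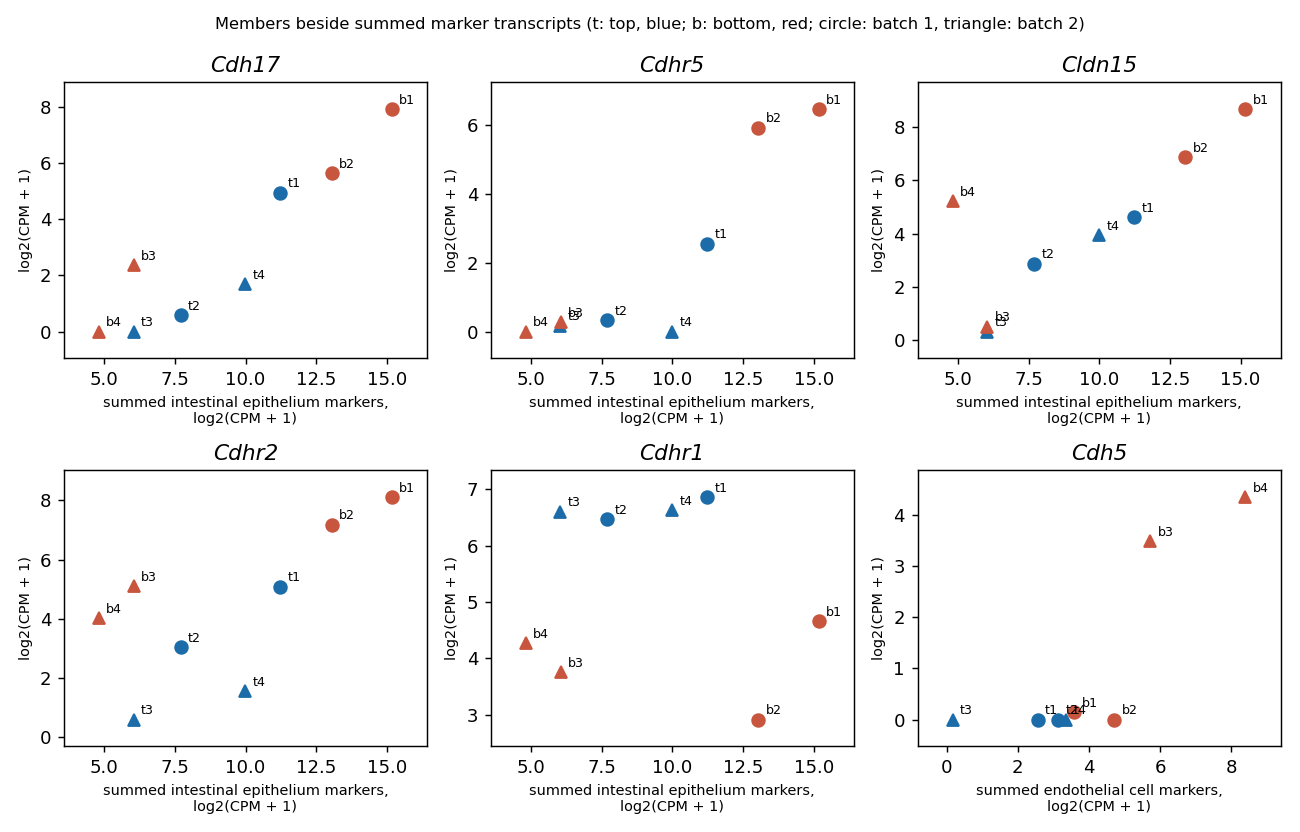
Level of Cdh17, Cdhr5, Cldn15, Cdhr2 and Cdhr1 (vertical axis) against the summed intestinal markers, and of Cdh5 against the summed endothelial markers, both axes as log2(CPM + 1), with 1 point per library (t for top in blue, b for bottom in red, circles for batch 1 and triangles for batch 2). Cdh17, Cdhr5 and Cldn15 are highest in bottom 1 and bottom 2, where the intestinal sums are 36900 and 8440 CPM, and Cdh5 is highest in bottom 3 and bottom 4, where the endothelial sums are 51.6 and 335 CPM.

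The genes whose log2 CPM over the 8 libraries was most like that of Cdhr1 were Chrm3 (Pearson r = 0.975), Crybg3 (0.960), Alg12 (0.957), Shc1 (0.956) and Zc3h3 (0.955). Each was chosen as the most like among all other tested genes over 8 libraries that also differ in population, so the r values are a description. Chrm3, the muscarinic receptor through which acetylcholine raises insulin secretion, stood at 4.17, 3.26, 4.20 and 3.65 CPM in top and 0.328, 0.0935, 0.421 and 0.463 CPM in bottom. Shc1, an adaptor of growth factor receptors, stood at 74.8 to 127 CPM in top and 33.1 to 51.7 CPM in bottom.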

How the data were processed

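Libraries came from about 1000 sorted cells each, amplified with the SMARTer Ultra Low RNA kit and prepared with Nextera XT, per the labels' protocols. The deposited values are expected counts from RSEM, which shares out reads that match several genes. The submitters' processing notes name RSEM, edgeR and mm9, while the aligner and the annotation are not given in the sources used here. Of all expected counts 34.8% were not whole, and they were rounded. The labels do not say that strand was kept, so overlapping genes may share reads.

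Counts were scaled by TMM, filtered by filterByExpr with the population as group, and tested with edgeR 4.0.16 (quasi-likelihood, R 4.3.3) in a model of batch and population. P-values were adjusted over 11721 genes, and the biological coefficient of variation was 0.806. The procedure was tested on simulated data with a smaller spread, no batch effect and changes only in genes of higher count. That test does not show how the procedure performs at the spread of these data or for members of low count. Alternatives were RLE scaling, total counts, no filter, DESeq2 1.42.0, limma-trend 3.58.1, no batch term, each batch alone and each library left out. For genes at 0 in a population, 3 counts over that population were taken as the floor, which covers counting error only. Genes named in the text were those called, those whose populations did not overlap, the 5 highest members per family, the 10 members with the largest fold changes, members of at least 10 counts below the filter, the 3 smallest p-values per partner list and the 5 genes most like Cdhr1. Members, gene lists and tests were chosen with earlier results of these data known. Promoters came from RefSeq on GRCm38.p6, not the build of the counts, and 70 of 72 symbols matched its table.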

Additional observations from a re-analysis of the deposited data

Results flagged for a closer look

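Within populations, 10 of 56 groups of 4 libraries (28 members in each population) had 1 library set far from the other 3 by Dixon's test, in 9 members. The test flags about 1 in 20 groups by chance where values are normally distributed. CPM are skewed and often near 0, so the 10 flags cannot be set against that rate. Top 1 was such a library for Cdh1 (109 CPM, low), Cdh17 (29.8 CPM), Cldn23 (29.3 CPM) and Itga3 (10.6 CPM), and it held the highest intestinal marker sum of the top libraries, at 2400 CPM. Top 2 stood apart for Cldn2 (1.63 CPM, the others at 0). Top 3 stood apart for Cdh8 (11.3 CPM, low), Cldn9 (4.82 CPM) and Itgb6 (3.46 CPM). Among the bottom libraries, bottom 2 stood apart for Cldn9 (102 CPM) and bottom 3 for Cldn1 (11.3 CPM).

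In 2 members every bottom library moved one way against top in batch 1 and the opposite way in batch 2. Cdh4 was lower in bottom in batch 1 and higher in batch 2 (interaction 4.29 on the log2 scale, edgeR unadjusted p = 0.0862). Cldn25 was higher in batch 1 and lower in batch 2 (interaction -2.68, edgeR unadjusted p = 0.0152, adjusted p = 0.559).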

How the results depend on the processing

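Cdhr1 and Cdhr2 kept their direction under every alternative run, but each call depended on the setting. Against 1 member called higher and 1 lower, RLE scaling gave 1 and 0, total counts without scaling 2 and 0, no filter 2 and 1, DESeq2 5 and 2 (beside 4.08% and 1.96% of the genes it tested), limma-trend 1 and 1, and no batch term 0 and 1. Either batch alone gave 0 and 0, as did leaving out bottom 1 with bottom 2 or bottom 3 with bottom 4, alternatives added after seeing the data. Leaving out 1 library gave 0 to 0 higher and 0 to 1 lower. With fewer libraries 0.00789% to 0.49% of all genes were called. Of the partner genes, 0 were called by edgeR, where 0.444% of all genes were. Total counts called 2 (0.606% of all genes), no filter 9 (1.17%), DESeq2 22 (6.04%) and limma-trend 7 (1.17%). No filter and DESeq2 tested 17392 and 13750 genes, beside 11721 in the main test. With 1 library left out 0 to 3 partner genes were called (3, namely Ctgf, Fn1 and Vim, without bottom 1). Untested members numbered 19 with no filter, all those at 0 counts. Using total counts moved the median of all genes by 0.34 on the log2 scale. The cause of these differences was not tested.

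Signs turned 30 times in 9 of 56 named genes, none of them called. With total counts Cdh1 was at 0.13 and Cldn12 at 0.22. In batch 1 alone Cldn12 was at 0.24 and Itga4 at -0.18. In batch 2 alone Cdh4 was at 1.32, Cldn25 at -0.98, Cldn4 at -1.54, Cldn6 at -0.71 and Mllt4 at 0.01. Without bottom 1 and 2 Cdh4 was at 1.31, Cldn25 at -1, Cldn4 at -1.57, Cldn6 at -0.73 and Mllt4 at 0. Without bottom 3 and 4 Cdh1 was at 0.01, Cldn12 at 0.27 and Itga4 at -0.1. With 1 library left out Cdh4 ran from -1.89 to 0.06, Cldn12 from -1.03 to 0.21, Cldn25 from -0.23 to 0.89, Cldn4 from -0.36 to 1.76, Cldn6 from -0.31 to 0.85, Itga3 from -0.53 to 2.37 and Itga4 from -0.34 to 0.32. No paired analysis was possible because top and bottom libraries share only 1 title number within a batch. With 4 libraries per population and a coefficient of variation of 0.806, differences in members of low count were not resolved.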
